A study of Homo sapiens with 18 samples.

Results

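The 6 libraries described here are the untreated cells of the study, 3 in a first series and 3 in a second, out of 18 libraries in all. They were chosen by their sample titles, and the counts of both series were joined by gene symbol after exact duplicate rows of the second had been dropped. OVCAR3 is an established cell line from a high-grade serous ovarian carcinoma, grown here as adherent cells in RPMI with 2% fetal bovine serum. The other libraries came from the same line after 24 h with 0.5 µg/ml of antibody: non-specific IgA or IgG in the first series, and IgA against the neurotrophin BDNF or the tetraspanin TSPAN7 in the second. The study asked how IgA carried across tumour cells by the polymeric immunoglobulin receptor changes their transcription, and untreated cells were the baseline for it. The untreated cells received no antibody, and a supplement to the study gives a shorter incubation than the labels. All 6 libraries stand for 1 cell line, and the labels do not say whether replicates came from separate cultures, so p-values measure only the spread between these samples, which may be technical. Series and batch cannot be told apart: culture occasion, library preparation and sequencing may all differ between them.

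High-grade serous carcinoma is thought to arise largely from secretory epithelium of the fallopian tube and keeps its Müllerian transcription factors, such as PAX8, WT1 and SOX17. Its cells carry cytokeratins and tight junctions and shed MUC16, the protein measured clinically as CA125. A resting tumour cell also holds stress and interferon programmes at a low setting: type I interferon acts through a complex that includes STAT2 and IRF9 on promoters with a paired TTTC element, and amino acid or endoplasmic reticulum stress acts through translation of ATF4.

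Untreated library totals ranged from 31950469 to 47381836 counts, and between 17136 and 18485 genes reached 10 counts in a library. Across 18087 genes, Pearson's r of log2 CPM, a depth-scaled count (prior count 2), was 0.984 to 0.986 between libraries of the first series and 0.993 to 0.994 between those of the second. Between a library of one series and a library of the other it was 0.966 to 0.970. Genes are not independent replicates, so these values are descriptions. The biological coefficient of variation was 11.5% among the first-series libraries and 4.46% among those of the second. A principal component holding 63.9% of the variance separated the series. No 2 libraries agreed within sampling noise (chi-square per degree of freedom at least 5.59), and each was counted as 1 sample. This value cannot show separate cultures, since libraries of 1 culture can also differ by more than sampling noise.

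Of 55765 gene symbols, 15877 had at least 10 counts in all 6 libraries, of which 13166 were protein-coding, and 22413 had no count in any. Levels are given below as RPKM, reads scaled to exon length and to library size by TMM (trimmed mean of M values), which allows comparison between genes. By this measure 10112 protein-coding genes reached 1 RPKM in every library and 209 reached 100 RPKM. Genes of the mitochondrial genome held 7.197% to 10.03% of all counts, and ribosomal protein genes 4.04% to 5.09%. Short RNAs without a poly(A) tail were prominent in these libraries of total RNA. RN7SL1, the RNA of the signal recognition particle, alone held 1.82% to 2.73% of counts and was the gene with the most counts, followed by MT-CO1, MT-ND4, MT-ND1, MT-ND5, MALAT1, RPPH1, FLG, MT-ATP6 and MT-CO3.

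The highest levels among nuclear protein-coding genes other than ribosomal proteins and histones belonged to glycolysis, iron storage, the cytoskeleton and secreted protease inhibitors. GAPDH, a glycolytic enzyme, averaged 1346 RPKM over the 6 libraries, and it ranged from 1299 to 1394 RPKM. The ferritin chains FTH1 and FTL averaged 1339.7 and 1133 RPKM, and the actin-binding peptide TMSB10 1002 RPKM. SLPI, a secreted inhibitor of leukocyte proteases, gave 991, 919 and 1023 RPKM in first-series libraries and 915, 909 and 1038 in those of the second. PI3, the related protease inhibitor elafin, gave 729, 721 and 723 RPKM in first-series libraries and 989.8, 910.0 and 1035 in those of the second. For SLPI the series overlapped, while for PI3 every second-series library was above every first-series library (1.33-fold higher, adjusted p = 8.08e-05). FLG, the keratinocyte protein filaggrin, gave 475, 559 and 685 RPKM in first-series libraries and 463, 484 and 433 in those of the second, beside 598 RPKM on average for beta-actin, ACTB. FLG is a long gene of near-identical repeats (GRCh37 chr1:152274641-152297715), so reads placed there depend on how repeats were handled, and the strand of reads was not stated to be used. The remaining genes of the 15 highest were S100A11, HSPB1, HSP90AA1, ACTG1, PTMA, PFN1 and PSMC4, from 918 down to 406 RPKM.

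**Figure D1:**
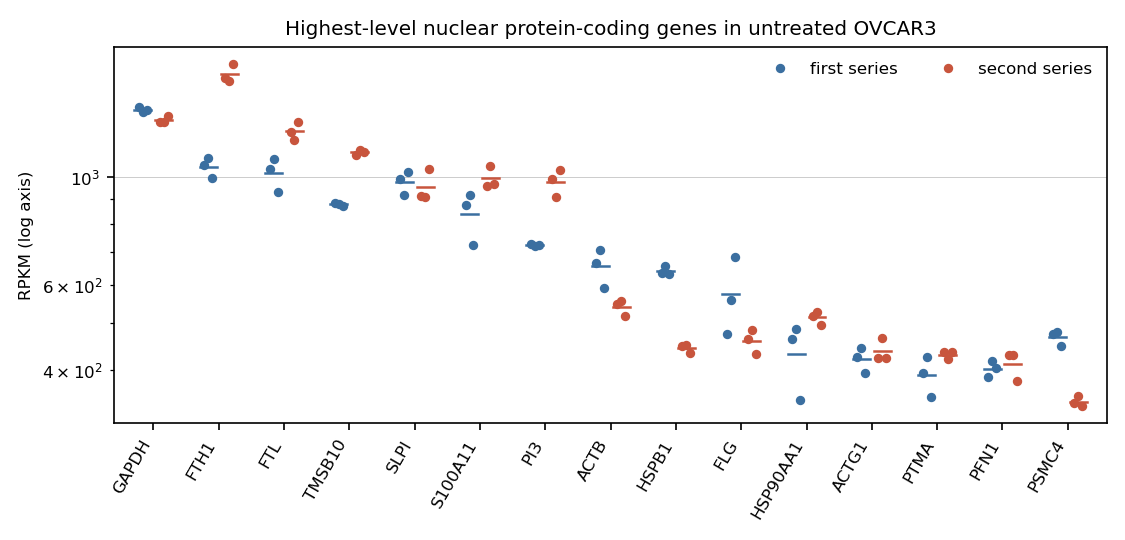
RPKM on a log axis of the 15 nuclear protein-coding genes with the highest mean level in untreated OVCAR3 cells, ribosomal proteins and histones left out. Points are libraries, bars are the mean of 3 libraries, blue is the first series and red the second; GAPDH spans 1299 to 1394 RPKM in all 6.

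The lineage markers of serous carcinoma were present in all 6 libraries. They are shared by many serous lines and do not identify OVCAR3. PAX8, the Müllerian lineage factor, gave 69.95, 71.3 and 84.4 RPKM in first-series libraries and 58.9, 58.2 and 56.5 in those of the second. WT1, a transcription factor of serous tumours, gave 17.2, 16.1 and 18.6 RPKM in first-series libraries and 11.5, 11.6 and 12.2 in those of the second. The sodium-phosphate cotransporter SLC34A2 averaged 360.1 RPKM, the retinoic acid carrier CRABP2 296 RPKM, the secreted matrix protein SPON1 179 RPKM and WFDC2, the HE4 antigen, 212 RPKM. Of 23 serous markers in the tables, 22 had at least 10 counts in all 6 libraries, and the exception was PGR, the progesterone receptor, with 9, 2 and 0 counts in first-series libraries and 1, 0 and 0 in those of the second. Every epithelial marker was detected in all 6 libraries. Keratin 18 averaged 289 RPKM, keratin 19 163 RPKM, keratin 8 128 RPKM and the adhesion molecule EPCAM 111 RPKM. Vimentin, the intermediate filament of mesenchymal cells, was also present at 103 to 262 RPKM. The CCNE1 locus, amplified in many serous tumours, averaged 44.3 RPKM for cyclin E1 itself, 90.9 RPKM for the neighbouring chaperone gene URI1 and 49.01 RPKM for POP4.

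Markers of other cell types were low, and some of them were absent. Of 16 leukocyte markers, 9 had at most 3 counts in each of the 6 libraries, and CD3D, CD3E, NKG7, ITGAM, AIF1 and TYROBP had none. PTPRC, the pan-leukocyte phosphatase CD45, had 24, 16 and 26 counts in first-series libraries and 6, 7 and 10 in those of the second. The summed leukocyte list came to between 35.1 and 79.4 normalised counts per library, a unit that rescales each library to the mean size of the 6. Among 10 fibroblast markers 2 had at most 3 counts throughout, COL3A1 with none, while 4 had at least 10 counts in all 6 libraries, the collagen chain COL1A2 being the highest at 4.84 RPKM. Of 9 endothelial markers 2 had at most 3 counts throughout, EMCN with none, and 3 had at least 10 in all 6 libraries, up to 1.495 RPKM for ERG. The summed endothelial list fell between 409 and 860.3 normalised counts, most of it this transcription factor. Of 12 ciliated-cell markers 2 had at most 3 counts throughout and 6 had at least 10 in all 6 libraries, up to 2.43 RPKM for RSPH1. The ciliated-cell factor FOXJ1 gave 0.745, 0.757 and 1.12 RPKM in first-series libraries and 0.148, 0.285 and 0.2699 in those of the second, and SNTN had no count. In bulk RNA, fewer cells of a type and less RNA per cell cannot be told apart.

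Of the machinery that would meet an antibody, many receptors and both antigens were low at rest, while vesicle transport genes were expressed. All 14 transcytosis genes had at least 10 counts in all 6 libraries, with a median of 11.9 RPKM. PIGR, the receptor that carries polymeric IgA across epithelia, had 34, 39 and 27 counts in first-series libraries and 73, 88 and 73 in those of the second, or 0.148 to 0.479 RPKM. FCAR and ASGR2 had no count in any library, nor did FCGR2B, and 7 of 16 antibody receptors had at most 3 counts throughout. FCGRT, the neonatal Fc receptor, gave 1.68, 1.33 and 1.84 RPKM in first-series libraries and 0.987, 0.793 and 0.893 in those of the second. TFRC, the transferrin receptor that can also bind polymeric IgA, ranged over 19.2 to 32.4 RPKM, and only the sugar-binding galectin LGALS3 had a higher mean in the list (28.9 RPKM). In the vesicle transport that serves transcytosis, the tyrosine kinase YES1 averaged 53.3 RPKM, the recycling GTPase RAB11A 38.4 RPKM and VAMP3 35.8 RPKM. The antigen TSPAN7 gave 0.291, 0.186 and 0.2605 RPKM in first-series libraries and 0.179, 0.243 and 0.173 in those of the second, and the groups overlapped. BDNF, the other antigen, gave 0.664, 0.759 and 0.822 RPKM in first-series libraries and 1.18, 1.23 and 1.08 in those of the second, without overlap. Of their partners, the sorting receptor SORT1 averaged 35.2 RPKM, against 0.0265 RPKM for the BDNF receptor NTRK2. FSHR, the follicle-stimulating hormone receptor, had no count in any library. The paper describes OVCAR3 as positive for it and reports killing of these cells by FSH-targeted T cells. That is a measure of function, and the counts here are of RNA only.

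Cytokine receptors and their kinases were expressed at moderate levels. The interferon gamma receptor chains IFNGR1 and IFNGR2 averaged 7.97 and 14.4 RPKM, and the type I receptor chain IFNAR1 8.75 RPKM. The interleukin 1 receptor IL1R1 averaged 31.03 RPKM and TNFRSF1A, the main TNF receptor, 17.99 RPKM. Among growth factor receptors, ERBB2 was the highest at 76.8 to 269 RPKM, while EGFR stayed at 11.96 to 15.1 RPKM. Proliferation genes were high in every library, with the nuclear antigen MKI67 at 71.6 to 101 RPKM, topoisomerase TOP2A at 57.4 to 98.5 RPKM and the replication clamp PCNA at 40.7 to 58.3 RPKM. CDKN1A, the p53-induced cell cycle inhibitor, was low by contrast at 0.637 to 1.01 RPKM. Chaperones were abundant, with HSPA8 averaging 396 RPKM and the endoplasmic reticulum lectin CALR 330.0 RPKM, whereas the strictly stress-induced HSPA6 averaged 0.159 RPKM. Class I antigen presentation genes were expressed, with HLA-C at 105 RPKM and B2M at 113 RPKM, while CD74, the class II invariant chain, averaged 5.09 RPKM and HLA-DQA1 had no count. The lipid desaturase SCD averaged 124 RPKM.

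The resting transcriptome was not the same in the series. In the second series 4295 of 18087 tested genes were higher and 4411 lower than in the first (edgeR quasi-likelihood test, adjusted p under 0.05), which is 23.7% and 24.4% of the genes, or 48.1% together. Most differences were small, with a median absolute log2 fold change of 0.33, and 71.5% of genes lay within 1.5-fold. At 2-fold or more, 1265 genes (6.99%) were higher and 777 (4.3%) lower, 11.3% together. Groups did not overlap for 57.8% of genes. The series difference was also looked for in libraries with no part in this comparison, the 6 antibody-treated libraries of the second series against the 3 IgG-treated ones of the first, where 26.6% of 18718 genes were called higher and 26.1% lower (52.7% together). Of the 4295 genes higher in untreated cells, 3657 (85.1%) were called higher there too, and of the 4411 lower genes 3690 (83.7%) were called lower. The antibody differed there as well as the series. Every count of list members below is to be read against these shares, since about 1 gene in 4 was called in each direction. List members named beyond those the naming rule selects were picked after their values were seen.

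**Figure D2:**
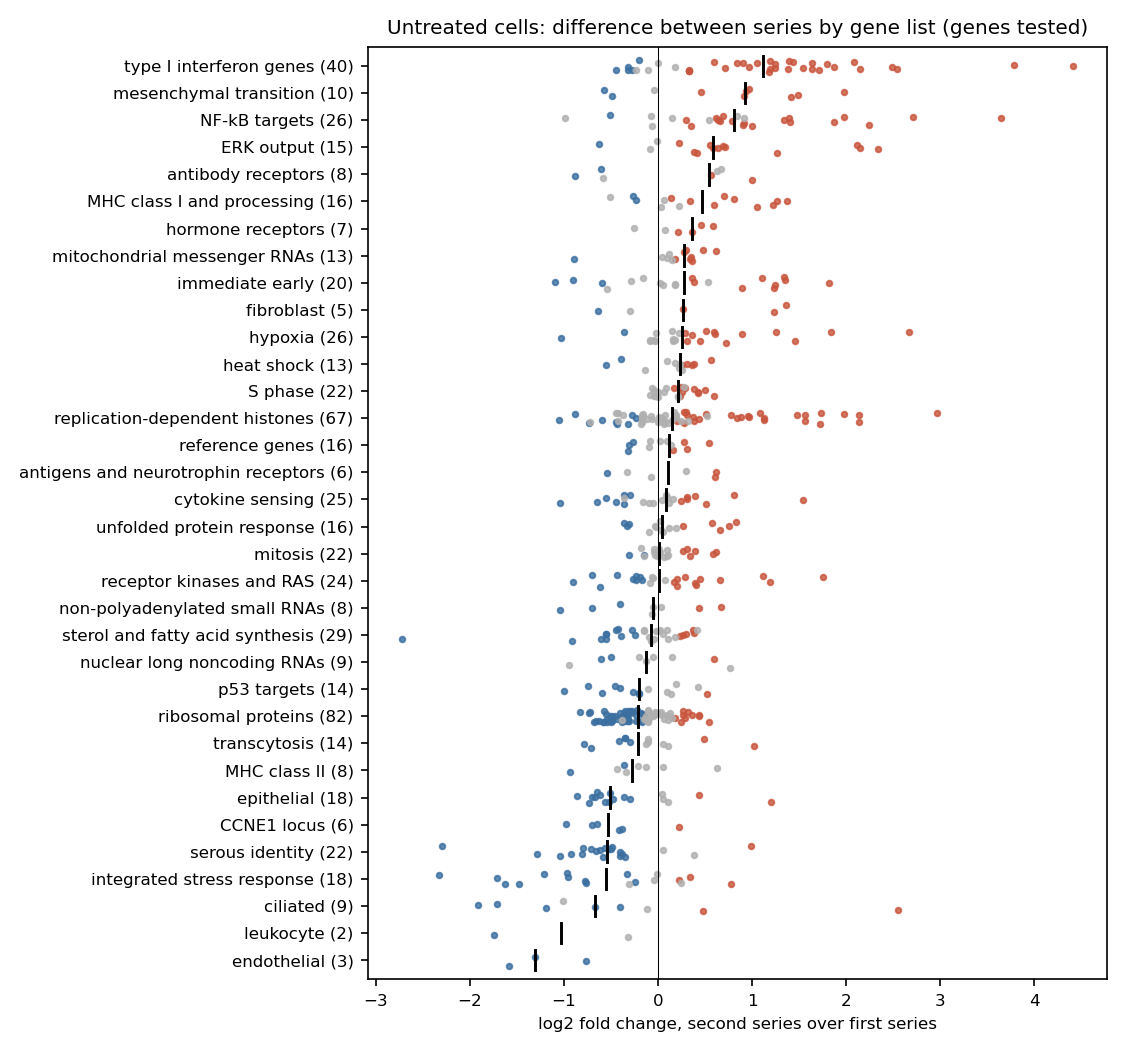
Log2 fold change of untreated cells, second series over first, for the tested members of 34 gene lists, with the number tested in parentheses. Red points were called higher, blue lower and grey neither, and black bars are list medians, which run from 1.11 for type I interferon genes to -1.31 for endothelial markers.

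Genes induced by type I interferon stood higher in the second series. 30 of 40 tested members were higher and 5 lower, and 21 were at least 2-fold higher, with a median log2 fold change of 1.11 beside -0.00140 over all genes tested. The ubiquitin-like modifier ISG15 gave 12.7, 12.6 and 13.7 RPKM in first-series libraries and 31.4, 32.5 and 26.8 in those of the second (2.28-fold higher, log2 fold change 1.19 ± 0.09 SE, adjusted p = 4.12e-07). IFI6, a mitochondrial survival protein, rose more, at 7.84 ± 1.53 RPKM in the first series against 46.2 ± 4.701 in the second (means ± SD, n = 3, here and below), with a log2 fold change 2.54 ± 0.12 SE, adjusted p = 6.79e-09. OAS2, which senses double-stranded RNA, gave 73.9, 73.1 and 47.04 normalised counts in first-series libraries and 911, 1089 and 695 in those of the second (log2 fold change 3.78 ± 0.19 SE, adjusted p = 1.26e-08). XAF1, a pro-apoptotic gene, had 11, 11 and 5 counts in first-series libraries and 246, 218 and 213 in those of the second (log2 fold change 4.41 ± 0.28 SE, adjusted p = 9.09e-08). All 4 of these separated the series completely. The transcription factor IRF7 rose 4.45-fold, the virus-tethering protein BST2 3.65-fold and the antiviral repeat protein IFIT1 3.26-fold. IFITM3, the highest of the list per length, differed less, with 136 ± 0.419 RPKM in the first series against 174 ± 3.31 in the second (1.25-fold). The 5 lower members, chosen for their direction, were DDX58, UBE2L6, PARP9, DTX3L and LGALS3BP, between -0.45 and -0.20 on the log2 scale, and 3 were lower without second-series replicate 1 or 3. Neither IFNAR1 (-0.09, adjusted p = 0.218) nor STAT2 (-0.16, adjusted p = 0.0557) was called.

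The promoters of ISG15 and IFI6 are shown because they carry the paired element through which interferon-activated factors bind and because both genes separated the series. Each runs from 250 bases before to 50 after the RefSeq start (GRCh38.p14, ISG15 at chr1:1013247-1013546 on the plus strand and IFI6 at chr1:27672143-27672442 on the minus strand), 5′ to 3′ along the gene, and capitals mark matches, on either strand, to TTTC, any 2 bases and TTTC again, overlapping matches joined.
ISG15: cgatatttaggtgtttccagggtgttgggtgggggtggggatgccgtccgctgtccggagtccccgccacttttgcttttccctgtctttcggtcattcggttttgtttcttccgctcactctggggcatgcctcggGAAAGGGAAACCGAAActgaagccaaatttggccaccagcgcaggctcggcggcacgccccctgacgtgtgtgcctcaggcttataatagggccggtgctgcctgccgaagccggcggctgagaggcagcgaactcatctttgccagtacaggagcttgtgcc
IFI6: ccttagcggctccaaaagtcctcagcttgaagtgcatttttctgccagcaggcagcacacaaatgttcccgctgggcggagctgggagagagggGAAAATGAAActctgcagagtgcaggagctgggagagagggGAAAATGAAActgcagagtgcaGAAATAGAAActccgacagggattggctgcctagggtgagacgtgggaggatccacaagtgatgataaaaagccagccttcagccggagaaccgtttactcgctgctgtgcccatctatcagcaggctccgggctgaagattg
Of 40 interferon genes, 31 had a promoter in the RefSeq table used, and 20 of these (64.5%) held the element, against 996 of 27305 promoters in all (3.65%). Among the 23 of them called higher, 16 held it. A match describes the letters only and is not evidence of binding in these cells.

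For ISG15 and IFI6, on normalised counts scaled over all 18 libraries, untreated cells of the second series lay above the 3 first-series groups and below the antibody-treated cells of their own series. ISG15 stood at 429.5 ± 20.4 in untreated, 576 ± 102 in IgA-treated and 465 ± 63.2 in IgG-treated cells of the first series. In the second series it stood at 1003 ± 99.4 in untreated cells, 5231 ± 202 after BDNF IgA and 5121 ± 277 after TSPAN7 IgA. For IFI6 the same groups gave 279.5 ± 54.2, 301 ± 92.9, 266 ± 72.2, 1655 ± 169, 8635 ± 940.2 and 7354 ± 47.7. This order did not hold for every gene. CHAC1 was lower in untreated cells of the second series (138 ± 3.72) than in those of the first (679 ± 268) and than after BDNF IgA (199 ± 33.6) or TSPAN7 IgA (205 ± 23.2).

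Inflammatory genes were higher in the second series as well. Among NF-kB targets 18 of 26 tested members were higher and 1 lower, with a median log2 fold change of 0.81. The chemokine IL8, now named CXCL8, gave 103, 200.1 and 214 normalised counts in first-series libraries and 715, 681 and 703 in those of the second (3.94-fold higher, log2 fold change 1.98 ± 0.18 SE, adjusted p = 1.93e-06). CCL20, which attracts lymphocytes and dendritic cells, rose, at 38.1 ± 5.89 normalised counts in the first series against 255 ± 27.04 in the second (log2 fold change 2.71 ± 0.19 SE, adjusted p = 1.62e-07). CXCL1, the highest chemokine, rose, at 99.9 ± 4.36 RPKM in the first series against 189.6 ± 11.8 in the second (1.87-fold, adjusted p = 1.55e-07). The iron-binding LCN2 rose 4.72-fold and the inhibitor NFKBIA 1.61-fold. NFKB2 was the exception at -0.51 (adjusted p = 2.66e-04), with 2 members lower without first-series replicate 1, and CCL2 and CSF2 had no count in any library. Interleukin 6 was scarce throughout, with 22, 32 and 24 counts in first-series libraries and 73, 82 and 83 in those of the second.

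Acute-phase and S100 genes made up 6 of the 10 largest rises. SAA1, serum amyloid A, gave 2.22, 2.36 and 2.09 RPKM in first-series libraries and 30.3, 24.7 and 29.9 in those of the second (12.5-fold, log2 fold change 3.64 ± 0.12 SE, adjusted p = 6.34e-10). Its neighbour SAA2 rose 10.6-fold, though reads of these near-identical genes may be split. S100A8 gave 4.87, 3.95 and 4.19 RPKM in first-series libraries and 59.3, 43.4 and 75.2 in those of the second (13.5-fold, log2 fold change 3.76 ± 0.18 SE, adjusted p = 7.73e-09). S100A9, which pairs with it as calprotectin, gave 14.2, 17.6 and 11.2 RPKM in first-series libraries and 181, 144 and 185 in those of the second (11.6-fold, log2 fold change 3.54 ± 0.14 SE, adjusted p = 2.03e-09). Both came from the S100 cluster on chromosome 1, as did S100A7 (3, 7 and 1 counts against 58, 81 and 79). PTX3, a soluble pattern recognition protein, rose 11.9-fold, and the epidermal protease inhibitor SPINK6 11.7-fold. The largest fitted rise among the named genes belonged to DMBT1, a mucosal scavenger protein, from 4, 0 and 1 counts to 43, 64 and 54. Its log2 fold change of 4.69 ± 0.63 (SE) moved between 4.10 and 6.33 when single first-series libraries were left out. In all of these genes every second-series library was above every first-series one, but that was a condition for entering the list of largest rises.

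**Figure D3:**
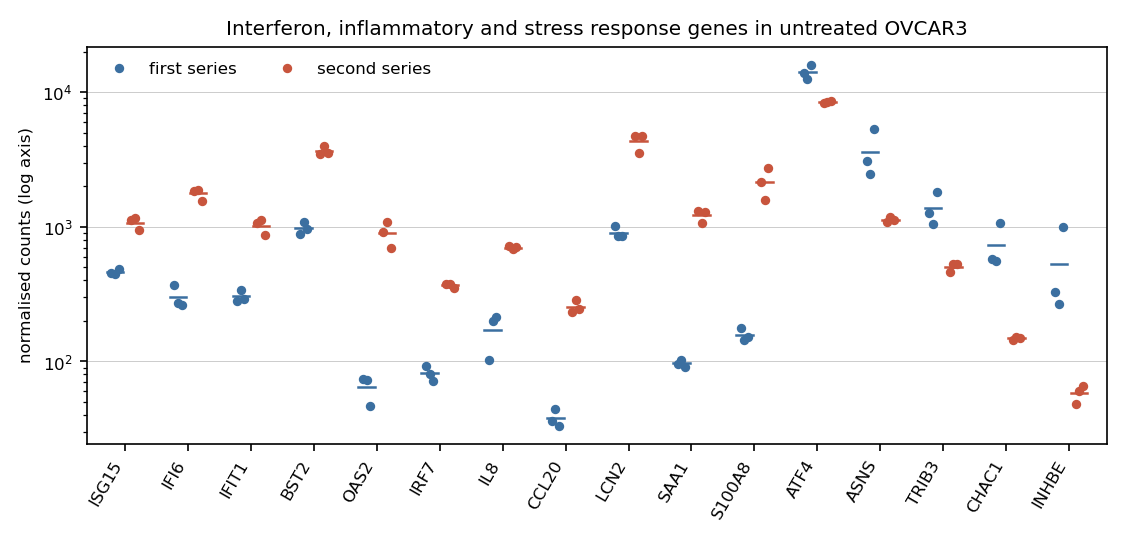
Normalised counts on a log axis of interferon (ISG15 to IRF7), inflammatory (IL8 to S100A8) and stress response genes (ATF4 to INHBE) in the 6 untreated libraries. Points are libraries and bars the mean of 3. The first 11 genes are higher and the last 5 lower in the second series (red), without overlap between series. For OAS2, SAA1, S100A8 and INHBE the lack of overlap was a condition of being named.

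Targets of the ERK kinases followed the same direction. Of the list, 12 of 15 tested members were higher and 1 lower, with a median of 0.59. PHLDA1, a growth-factor-induced regulator, gave 13.1, 12.9 and 14.6 RPKM in first-series libraries and 60.97, 59.8 and 62.6 in those of the second (4.44-fold, log2 fold change 2.15 ± 0.06 SE, adjusted p = 5.77e-10). The AP-1 subunit FOSL1 rose 4.32-fold and the ETS factor ETV1 5.07-fold, the latter at 0.313 ± 0.0474 RPKM in the first series against 1.62 ± 0.152 in the second. DUSP5, a nuclear ERK phosphatase, gave 7.59, 6.02 and 6.302 RPKM in first-series libraries and 9.16, 10.5 and 10.1 in those of the second (1.47-fold, adjusted p = 3.82e-04), without overlap. EPHA2, an ephrin receptor, was the single lower member at -0.62 (adjusted p = 2.93e-06). Immediate early genes were mixed, and 9 of 20 tested members were higher and 3 lower. Of the lower ones, ZFP36 was at -0.59, and 1 other was at least 2-fold lower. DUSP1, a phosphatase of MAP kinases, gave 9.21, 9.38 and 6.99 RPKM in first-series libraries and 28.9, 29.4 and 33.1 in those of the second (3.52-fold, log2 fold change 1.82 ± 0.10 SE, adjusted p = 3.27e-08), and the AP-1 subunits FOSB and JUNB rose 2.56-fold and 2.37-fold. EGR1, the highest of the list per length, gave 212, 181 and 95.3 RPKM in first-series libraries and 178, 202 and 186 in those of the second and was not called (adjusted p = 0.465). The summed immediate early list was lowest in the third first-series library, at 50126 normalised counts against 73507 to 84675 in the others, and without that library 9 members were higher and 5 lower.

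Lineage and epithelial genes stood lower in the second series, mostly by less than 2-fold. Of the serous markers, 2 of 22 tested members were higher and 18 lower, with a median log2 fold change of -0.54, and of the epithelial markers 2 of 18 tested members were higher and 13 lower, with a median of -0.51. FOLR1, the folate receptor alpha, fell most, with 84.6, 80.2 and 103 RPKM in first-series libraries and 17.9, 17.3 and 20.4 in those of the second (4.899-fold lower, log2 fold change -2.29 ± 0.09 SE, adjusted p = 2.90e-09). MSLN, mesothelin, fell 2.06-fold, at 28.9 ± 3.18 RPKM in the first series against 14.2 ± 1.17 in the second. PAX8 was 1.32-fold lower (adjusted p = 3.15e-04) and WT1 1.497-fold (adjusted p = 6.65e-06). RAB25, an epithelial recycling GTPase, was 2.17-fold lower, EPCAM 1.66-fold and E-cadherin, encoded by CDH1, 1.39-fold. The higher serous members were MECOM, with 18.6, 18.7 and 18.5 RPKM in first-series libraries and 38.3, 37.2 and 37.3 in those of the second (1.99-fold, log2 fold change 0.99 ± 0.05 SE, adjusted p = 1.19e-08), and the oestrogen receptor ESR1, with 0.596 ± 0.195 RPKM in the first series against 1.73 ± 0.186 in the second. Among epithelial genes the hemidesmosome integrin ITGB4 rose 2.302-fold and the desmosome protein DSP 1.35-fold. MUC16 gave 28.5, 24.4 and 54.5 RPKM in first-series libraries and 46.1, 50.9 and 45.00 in those of the second and was not called (log2 fold change 0.38 ± 0.21 SE, adjusted p = 0.153). The third first-series library lay above all others, and without that library MUC16 was called higher at 0.81 (adjusted p = 5.40e-08).

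Mesenchymal genes went the other way. Of 10 tested, 7 were higher and 2 lower, with a median of 0.93. VIM gave 139, 146 and 103 RPKM in first-series libraries and 262, 259 and 253 in those of the second (1.96-fold, log2 fold change 0.97 ± 0.10 SE, adjusted p = 5.24e-06). The transcription factor SNAI2 gave 2.28, 1.84 and 1.89 RPKM in first-series libraries and 7.49, 8.499 and 8.04 in those of the second (3.94-fold, log2 fold change 1.98 ± 0.10 SE, adjusted p = 1.29e-08), and ZEB1 rose 2.67-fold. Fibronectin, FN1, rose 1.88-fold, while SNAI1 (-0.57) and SPARC (-0.48) were lower. Only 1 member was lower without second-series replicate 1. The summed fibroblast list lay between 2759.5 and 3254 normalised counts, overlapping between series, and COL3A1 was at 0. Of the CCNE1 locus, 5 of 6 tested genes were lower, from -0.38 for POP4 to -0.98 for PLEKHF1. CCNE1 itself was at -0.42, with 50.3 ± 4.09 RPKM in the first series against 38.3 ± 0.353 in the second. UQCRFS1 was higher at 0.23, a call lost without second-series replicate 2 or 3. Of the few tested markers of other cell types, 3 of 5 fibroblast genes were higher and 1 lower, 3 of 3 endothelial genes were lower, 1 of 2 leukocyte genes was lower, and of 9 ciliated-cell genes 2 were higher and 5 lower, FOXJ1 most (-1.92, adjusted p = 1.92e-04). The fibroblast, ciliated-cell and leukocyte counts moved when 1 library was left out. Without first-series replicate 3 or second-series replicate 1 only 1 fibroblast gene was higher, and in a fit of all 18 libraries COL1A2 and PDGFRA were not called (adjusted p = 0.241 and 0.0563). The ciliated count became 2 higher and 3 lower without second-series replicate 1, 1 and 4 without replicate 2, and 1 and 2 without replicate 3. A leukocyte gene was called higher without any 1 of the first-series libraries or second-series replicate 2. Whether such genes have a part in the other differences was not tested.

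**Figure D4:**
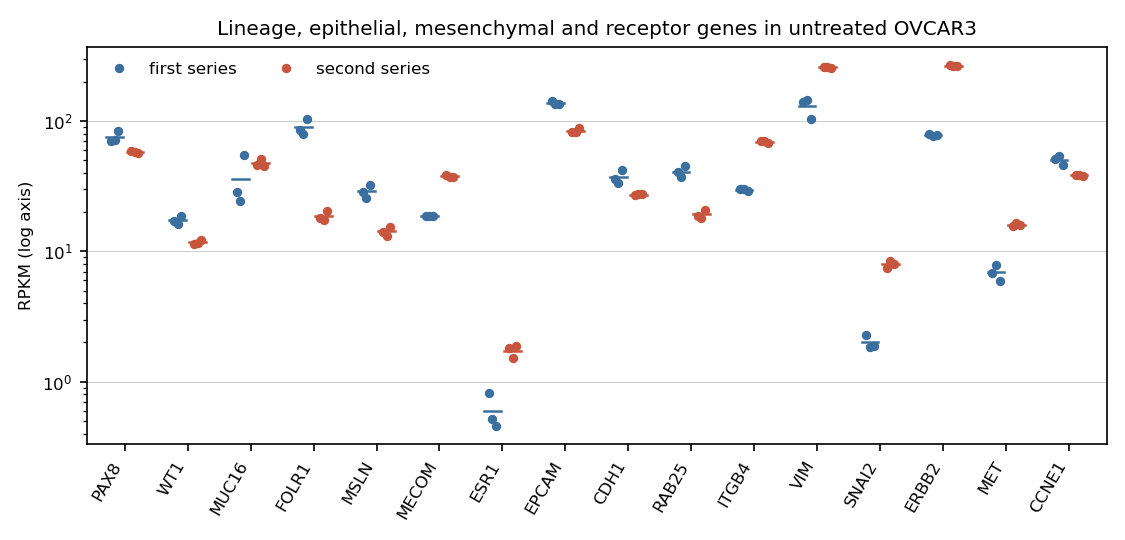
RPKM on a log axis of lineage (PAX8 to ESR1), epithelial (EPCAM to ITGB4), mesenchymal (VIM, SNAI2), receptor (ERBB2, MET) and CCNE1 genes in the 6 untreated libraries. Points are libraries and bars the mean of 3; FOLR1 lies at 84.6, 80.2 and 103 RPKM in the first series (blue) and 17.9, 17.3 and 20.4 in the second (red).

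Growth factor receptors diverged by member. ERBB2, the HER2 receptor, gave 79.1, 76.8 and 77.6 RPKM in first-series libraries and 269, 266 and 264 in those of the second (3.36-fold higher, log2 fold change 1.75 ± 0.05 SE, adjusted p = 5.77e-10), and the spread within a series was far smaller than the gap. MET, the hepatocyte growth factor receptor, gave 6.87, 7.89 and 5.93 RPKM in first-series libraries and 15.7, 16.5 and 15.8 in those of the second (2.28-fold, log2 fold change 1.19 ± 0.09 SE, adjusted p = 2.61e-07). ERBB3 and ERBB4, partners of ERBB2, were lower at -0.61 and -0.70, and FGFR2 at -0.90 (adjusted p = 2.02e-06). In this list 11 of 24 tested members were higher and 9 lower, with a median of 0.01. Of the hormone receptors 5 of 7 tested were higher, led by ESR1 and the thyroid receptor THRA (0.58). Of 8 antibody receptors tested 3 were higher and 2 lower. PIGR was 2.003-fold higher (log2 fold change 1.00 ± 0.28 SE, adjusted p = 0.00874), TFRC 1.42-fold higher and FCGRT 1.84-fold lower (adjusted p = 4.41e-04). TRIM21 was at 0.57 and LGALS3, the highest of the list per length, at -0.60. PIGR rested on few counts, and the call was lost without the second library of the second series (0.88, adjusted p = 0.0525) and in a fit of all 18 libraries (adjusted p = 0.0572). Of 14 transcytosis genes 2 were higher and 7 lower, and of the antigens BDNF was 1.52-fold higher (adjusted p = 0.00108) while TSPAN7 was not called (adjusted p = 0.479). Of 25 cytokine sensing genes 8 were higher and 7 lower, with IFNGR1 1.31-fold higher (adjusted p = 8.11e-04) and IFNGR2 not called (adjusted p = 0.214).

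Genes of the integrated stress response stood lower in the second series. In it 3 of 18 tested members were higher and 11 lower, 5 of them at least 2-fold lower, with a median log2 fold change of -0.55. ATF4, its central transcription factor, gave 130.5, 118 and 149 RPKM in first-series libraries and 77.2, 79.3 and 81.04 in those of the second (1.699-fold lower, log2 fold change -0.76 ± 0.07 SE, adjusted p = 2.68e-06). ASNS, asparagine synthetase, gave 15.3, 12.3 and 26.5 RPKM in first-series libraries and 5.41, 5.86 and 5.64 in those of the second (3.26-fold lower, log2 fold change -1.70 ± 0.20 SE, adjusted p = 1.54e-05). CHAC1, which degrades glutathione, gave 6.81, 6.598 and 12.7 RPKM in first-series libraries and 1.72, 1.81 and 1.76 in those of the second (5.02-fold lower, log2 fold change -2.33 ± 0.22 SE, adjusted p = 2.12e-06). In each of these the third first-series library was the highest, and no second-series library reached the lowest of the first. INHBE, an inhibin chain and the largest fall among the named genes, gave 327, 267 and 989.9 normalised counts in first-series libraries and 48.1, 60.5 and 65.9 in those of the second (log2 fold change -3.21, adjusted p = 4.46e-05). With the third library left out its log2 fold change was -2.37 (adjusted p = 3.92e-08), CHAC1 was at -1.96, ATF4 at -0.68, and the list median at -0.38 with 4 members higher and 10 lower. Members that went the other way were SLC7A11 (0.23), CTH (0.34) and ATF5 (0.78). The amino acid transporters SLC7A5 and SLC3A2 were not called (adjusted p = 0.0568 and 0.948).

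The promoters of CHAC1 and ASNS are shown because both carry an 8-base amino acid response element and both were among the genes that fell. They cover 250 bases before to 50 after the RefSeq start (GRCh38.p14, CHAC1 at chr15:40953221-40953520 on the plus strand and ASNS at chr7:97872359-97872658 on the minus strand), and capitals mark matches to TGATGNAA on either strand.
CHAC1: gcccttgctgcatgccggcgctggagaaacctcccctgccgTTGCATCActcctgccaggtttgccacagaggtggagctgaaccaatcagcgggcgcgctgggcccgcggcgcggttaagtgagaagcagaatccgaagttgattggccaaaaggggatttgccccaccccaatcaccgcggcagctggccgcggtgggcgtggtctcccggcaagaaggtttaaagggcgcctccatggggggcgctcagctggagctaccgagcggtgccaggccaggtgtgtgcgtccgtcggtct
ASNS: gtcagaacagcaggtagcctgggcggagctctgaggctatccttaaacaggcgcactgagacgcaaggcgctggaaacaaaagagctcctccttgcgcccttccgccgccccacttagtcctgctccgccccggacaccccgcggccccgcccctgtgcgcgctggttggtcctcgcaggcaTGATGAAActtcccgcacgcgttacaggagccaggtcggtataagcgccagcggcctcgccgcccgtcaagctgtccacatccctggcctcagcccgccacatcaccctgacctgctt
The element stood in 3 of the 17 stress response promoters in the table (17.6%), against 1003 of 27305 in all (3.67%). Among the 11 of them called lower, only 2 held it, CHAC1 and ASNS, and the other match, SLC3A2, was not called. Here too a match describes the letters only and is not evidence of binding.

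Other genes of the 10 largest falls had varied roles. DKK2, a secreted WNT inhibitor, gave 424, 435 and 499 normalised counts in first-series libraries and 66.7, 83.9 and 87.6 in those of the second (log2 fold change -2.53 ± 0.15 SE, adjusted p = 3.27e-08). VTCN1, the immune checkpoint ligand B7-H4, gave 470.0, 436 and 477 normalised counts in first-series libraries and 87.3, 87.8 and 65.03 in those of the second (log2 fold change -2.55 ± 0.14 SE, adjusted p = 2.81e-08). Neither gene's values overlapped between series, which was a condition for entering the list of largest falls. STARD5, a lipid transfer protein, fell 5.72-fold, and ANKRD1, a mechanosensitive nuclear repeat protein, 5.16-fold. MASP1, C2orf54, SLC22A31 and BPIFB4 fell between 5.07-fold and 6.87-fold from low levels. MASP1 was 28.8, 31.5 and 106 normalised counts in the first series, and without the third first-series library the log2 fold change moved from -2.58 to -1.70 (adjusted p = 0.00891).

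Class I presentation and hypoxia genes were more often higher than lower. In class I presentation 10 of 16 tested members were higher and 2 lower, with B2M 1.61-fold higher and the activator NLRC5 2.41-fold higher, while HLA-C (0.06) was not called. Class II genes had 2 of 8 tested lower (24.4% of all genes were) and none higher. Of hypoxia genes, 14 of 26 tested members were higher and 2 lower. Without second-series replicate 1 or 2 only 1 member of each of the class I and hypoxia lists was lower. Without second-series replicate 3 the higher hypoxia members numbered 10. The carbonic anhydrase CA12 rose 3.58-fold and the glucose transporter SLC2A1 1.85-fold, and EGLN3, an oxygen-sensing hydroxylase, was 2.04-fold lower. ANGPTL4 had 9, 1 and 20 counts in first-series libraries and 76, 62 and 85 in those of the second, and its log2 fold change moved from 2.67 to 3.55 without the third first-series library. Among sterol and fatty acid genes 5 of 29 tested members were higher and 11 lower, with SCD 1.47-fold lower and FASN, the fatty acid synthase, not called (adjusted p = 0.344). The list median was -0.07, and without second-series replicate 3 the higher members numbered 3. Without first-series replicate 3 the lower members numbered 14.

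The called shares of both cell cycle lists were below the 48.1% of all genes, and the S phase calls were all higher (23.7% of all genes were). In S phase 10 of 22 tested members were higher and 0 lower, and in mitosis 6 of 22 tested members were higher and 2 lower, with medians of 0.21 and 0.02 in turn. Without second-series replicate 1 the S phase count was 6 higher and 0 lower. Without first-series replicate 3 it was 9 higher and 2 lower, with a median of 0.11, and for mitosis 6 higher and 4 lower, with a median of -0.00481. Leaving out any other library left 1 mitosis gene lower, and offsets for GC content and length gave 5. TOP2A rose 1.51-fold and MKI67 1.24-fold, and the S-phase maximum was CDC6, a licensing factor, at 1.51-fold. Of 14 p53 targets tested, 8 were lower and 1 higher, and BAX, the pro-apoptotic pore protein, was the higher one (0.52). The lower p53 targets numbered 4 without second-series replicate 1 or 2 and 5 without replicate 3, and 2 were higher with library size scaling. Unfolded protein response genes had 5 of 16 higher and 3 lower, and heat shock genes 5 of 13 higher and 2 lower. Without second-series replicate 1 or 2 the heat shock count was 3 higher and 2 lower. The small heat shock protein HSPB1 was 1.47-fold lower and the disaggregase HSPH1 1.48-fold higher.

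Ribosomal protein genes leaned lower in the second series and mitochondrial genes higher. Of 82 ribosomal protein genes tested, 45 were lower and 10 higher, with a median of -0.21, and their share of all counts went from 4.97% ± 0.11 to 4.13% ± 0.12 (SD, n = 3). The mitochondrial genome went from 7.66% ± 0.59 to 9.51% ± 0.63, without overlap. Of its 13 messenger RNAs 8 were higher, MT-ND1 most (1.54-fold), and MT-ND6, the one encoded on the other strand, was 1.85-fold lower. With offsets for GC content and length 3 were higher and 1 lower, and the list median went from 0.28 to 0.08. Of 67 replication-dependent histone genes tested, 27 were higher, 12 of them at least 2-fold, and 9 lower. HIST1H1A, a linker histone, had 116, 146 and 95 counts in first-series libraries and 1071, 1187 and 984 in those of the second (7.82-fold higher). With offsets for GC content and length the count was 20 higher and 17 lower, and without first-series replicate 1 it was 24 and 15. HIST1H2BK, the highest member per length, was 1.36-fold lower, and the linker histone HIST1H1C was not called (-0.16, adjusted p = 0.101). HIST1H1C was called lower with those offsets (-0.35, adjusted p = 5.81e-04) and without first-series replicate 1 (-0.23, adjusted p = 0.0336). Histone copies are alike in sequence, so reads may be shared between them. Of non-polyadenylated RNAs, the RNase P RNA RPPH1 was 2.06-fold lower, RMRP 1.36-fold higher and RN7SL1 not called (adjusted p = 0.771). In a fit of all 18 libraries RMRP was not called (adjusted p = 0.125). The reference genes of expression assays were not all steady: GAPDH was not called (-0.09, adjusted p = 0.165), ACTB was 1.23-fold lower (adjusted p = 0.00292) and B2M 1.61-fold higher. Of 16 such genes 7 were higher and 3 lower, and without second-series replicate 2 the higher ones numbered 4.

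Few genes were present in 1 series alone. With at least 10 counts in all 3 libraries of one series and at most 3 in each library of the other, 39 genes belonged to the second series, 8 of them protein-coding, and 5 to the first, 3 of them protein-coding. The coding genes of the second series were ANGPT2, CLDN14, HS6ST3, NPTX2, NUDT7, S100A12, S100A7A and XYLT1. ANGPT2, a vascular growth factor, had 2, 0 and 0 counts in first-series libraries and 27, 30 and 48 in those of the second. S100A12, of the S100 cluster, had none in the first and 11, 10 and 23 in the second. Those of the first series were FAM27E2, NMUR1 and TENM2, the last with 13, 12 and 20 counts against 3, 0 and 3. All lie near the limit of detection at this depth, and a count of 0 in a library allows a true count of up to 3.

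By position, the difference between series was largest in 1 gene cluster. Protein-coding genes with a mean of at least 200 normalised counts were grouped by 5-Mb stretches of GRCh37 holding at least 10 of them, 394 in all. Their median log2 fold changes mostly lay between -0.27 (5th percentile) and 0.26 (95th). Some stretches leaned 1 way with modest medians, and these examples were picked after their values were seen. In chr17:35000001-40000000 the median was 0.38, with 38 of 55 genes higher and 3 lower. In chr11:75000001-80000000 it was -0.45, with 1 of 22 higher and 21 lower. In chr19:30000001-35000000 it was -0.22, with 0 of 23 higher and 14 lower. The cause was not tested. The stretch chr19:20000001-25000000, which holds mostly KRAB zinc finger genes, a family of repressors that includes silencers of transposable elements, had a median of 1.45, against 0.41 for the next highest. All 21 of its genes were above 0 and 19 were called higher, against 23.7% of all genes. ZNF91 (chr19:23487793-23578273), which represses SVA elements, gave 779.5, 705 and 640.0 normalised counts in first-series libraries and 2437, 2503 and 2409 in those of the second (log2 fold change 1.77 ± 0.08 SE, adjusted p = 3.91e-09). ZNF43 (chr19:21987752-22034927) gave 389.8, 426 and 266 there and 1300.2, 1276 and 1244 in second-series libraries (adjusted p = 2.88e-07). In both the series did not overlap and the third first-series library was the lowest, as it was for ZNF486 (556, 564 and 203 against 1200.1, 1458 and 1226).

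Zinc finger genes outside the stretch gave smaller medians. Of ZNF genes in the stretch, 27 of 29 tested were higher and none lower, with a median of 1.54. Elsewhere on chromosome 19 the count was 113 higher and 17 lower of 203, with a median of 0.43, and on other chromosomes 63 higher and 52 lower of 241, with a median of 0.04. In the antibody-treated libraries of the second series against the IgG-treated ones of the first, the stretch again had the highest median, 1.19, with 20 of 21 genes above 0. Its genes are close paralogs, so a read may be placed on, or withheld from, more than one of them. With stretches moved by 2.5 Mb a boundary fell inside the cluster, and the highest median was 0.63, on chromosome 18. With no minimum level the stretch had a median of 1.53 over 30 genes, and the next, chr5:140000001-145000000, had 1.05. The stretch was noticed in these data, and these 3 alternatives were chosen after that.

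**Figure D5:**
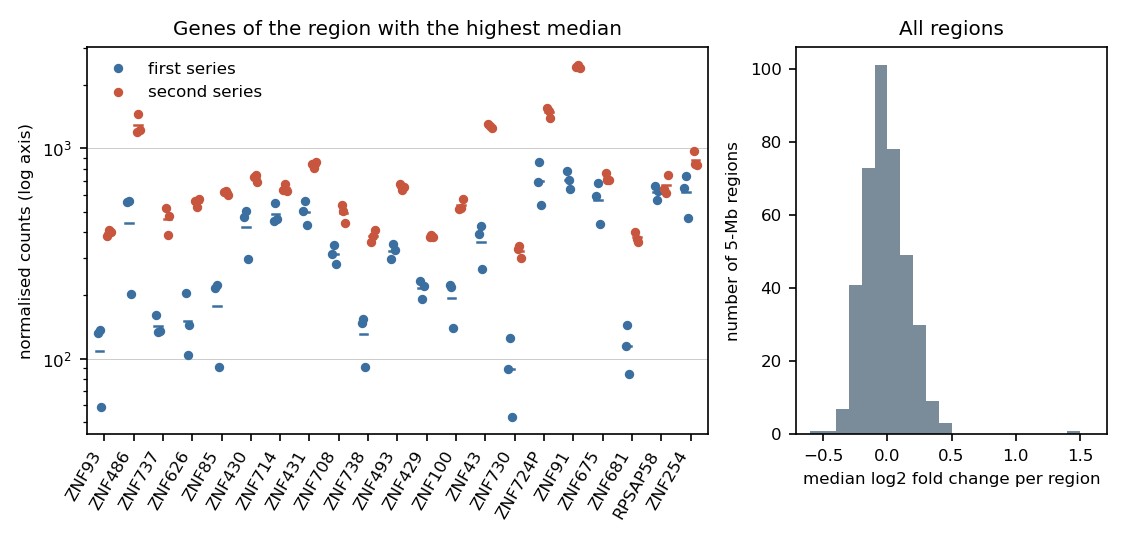
Left, normalised counts on a log axis of the 21 genes of the chromosome 19 stretch in the 6 untreated libraries, in chromosomal order (points are libraries, bars means of 3, blue first series, red second). Right, number of 5-Mb stretches by median log2 fold change, second series over first; the zinc finger stretch at 1.45 stands apart from the other 393, which reach 0.41.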

How the data were processed

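RNA-seq counts of the 6 untreated OVCAR3 libraries were analysed. Per the labels and the study's methods, total RNA was made into libraries with a kit for degraded RNA and sequenced as paired ends, and reads were trimmed with cutadapt 1.8.1 and aligned with STAR to hg19. The methods name featureCounts as the counter, and the submitters' processing notes name HTSeq 0.6.1. The values the authors deposited are raw counts per gene symbol, with no normalisation. Strand use was not stated.

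The second table held 2055 exact duplicate rows, which were dropped, leaving 55765 symbols in each. Groups were taken from sample titles. Library totals ranged from 31950469 to 47381836 counts, and since reads carried no molecular identifiers, limits from counts cover counting error only. Untreated libraries were compared by the two-sided quasi-likelihood F test of edgeR 4.0.16 (R 4.3.3), after TMM scaling and filterByExpr and with Benjamini-Hochberg adjustment, and genes were called at an adjusted p under 0.05. Standard errors were derived from the fold change and its F statistic. RPKM used exon lengths of a GRCh37 annotation, which matched 33529 symbols directly and 1821 by RefSeq synonym. In simulated untreated counts of 17722 genes, 98% of 200 changed genes were recovered at a log2 change of 1.5, and 5.77% of calls were false. The 200 were drawn above a minimum mean count and changed equally up and down. These rates therefore do not cover low counts, or differences as widespread and small as those between the series. Replicate numbers did not pair libraries.

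Named genes were the 15 highest levels, the 10 largest changes in each direction among called coding genes that reached 50 normalised counts on average in either series without overlapping, the 3 highest members and largest change of each list, and some genes whatever their values. Members and lists were chosen with earlier results of these data known. Alternatives were DESeq2 1.42.0, other scalings and filters, offsets for GC content and length, all 18 libraries, a replicate block and leaving out each library. The symbols CD24, PECAM1 and GPER were not analysed here. Some genes that the naming rule selected are not reported here.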

Additional observations from a re-analysis of the deposited data

How the results depend on the processing

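Both counts of called genes stayed within 1.5 times their reported value under each alternative run. Higher and lower genes numbered 4256 and 4251 with DESeq2, 4074 and 4867 with offsets for GC content and length, 3527 and 3523 in a fit of all 18 libraries, and 3479 to 4536 and 3485 to 4565 when single libraries were left out. The replicate block gave 4243 higher and 4236 lower. Same-numbered libraries of the series did not deviate together (correlations of -0.0168, 0.00467 and -0.0410, and libraries did not correlate best with their own number), so they share only a number. Under the block MUC16 was called (0.47, adjusted p = 0.0155), as were HSP90AA1 and PCNA, and no named gene lost its call. Of 2653 values of 167 named genes, 2544 kept their direction and their side of the threshold, 57 lost the call, 29 gained it and 23 turned direction. Of 306 list medians 262 moved by less than the spread between replicates, 38 moved by more and 6 turned direction.

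With offsets for GC content and length, MT-ATP6 went to -0.0436, MT-ATP8 to -0.11, PFN1 to -0.14, RRM2 to -0.0439, S100A11 to -0.00584 and the mitosis median to -0.000426. Leaving out single libraries turned other small differences. Log2 fold changes then ran from -0.0200 to 0.0713 for ACTG1, -0.10 to 0.0147 for CALR, -0.0892 to 0.42 for EGR1, -0.27 to 0.0104 for HLA-DRA, -0.0113 to 0.0905 for HLA-E, -0.32 to 0.0388 for NEAT1 and -0.00920 to 0.0470 for PDIA6. They ran from -0.0170 to 0.0666 for PFN1, -0.23 to 0.0324 for RN7SL2, -0.0818 to 0.0503 for RRM2, -0.0634 to 0.0523 for TPX2 and -0.00248 to 0.16 for TYMS. List medians ran from -0.0224 to 0.29 for antigens and neurotrophin receptors, -0.00481 to 0.0548 for mitosis, -0.23 to 0.0364 for non-polyadenylated small RNAs and -0.00987 to 0.05001 for receptor kinases. The cause was not tested.

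Depth limits genes of few counts, such as PIGR and the genes present in 1 series alone. With 3 libraries a group, of 1 cell line, the comparison cannot tell series from culture, preparation or sequencing batch.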
